A study of Mus musculus with 12 samples.

Results

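The 10 genes described here encode the mouse MHC class II antigen presentation machinery and its transcriptional coactivator: Ciita, Cd74, H2-Aa, H2-Ab1, H2-Eb1, H2-Eb2, H2-DMa, H2-DMb1, H2-DMb2 and H2-Ob. They were taken by symbol from the annotation of an Illumina bead array, on which 19 of 45281 probes carry one of these symbols. All 10 genes had at least 1 probe detected on 3 or more of the 12 arrays (17 of the 19 probes), and they make up 10 of the 12380 features tested. RNA came from lung cells carrying CD11c, the integrin subunit of alveolar macrophages and dendritic cells, isolated with AutoMACS magnetic separation and labelled as antigen-presenting cells. Wild-type mice and Mir22-/- mice, which lack the microRNA gene Mir22, had received nanoparticulate carbon black (nCB) or phosphate-buffered saline (PBS), with 3 arrays in each of the 4 groups. All samples carry the strain label B6(Cg)-Tyrc-2J/ J and an age of 4 months. The labels give exposure for 1 month beginning at 2 months of age. They do not say how long the mice were kept after exposure, whether each array held RNA of a different mouse, or whether the deletion was limited to a cell type. Errors and p-values therefore rest only on the spread among samples within groups, pooled over the 4 groups, which may be technical.

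MHC class II molecules are heterodimers of an α and a β chain that display peptides from the endosomes to CD4+ T cells. In the mouse the I-A molecule is built from H2-Aa and H2-Ab1, and H2-Eb1 encodes the β chain of I-E. B6 mice carry the H2b haplotype, in which the α gene H2-Ea is defective and I-E does not reach the surface, so H2-Eb1 is read here as a transcript. Cd74, the invariant chain, fills the groove during transport. H2-DM, made of the α chain H2-DMa and a β chain from H2-DMb1 or H2-DMb2, then swaps the remnant of Cd74 for peptide, and H2-O, of which H2-Ob is the β chain, restrains H2-DM. Ciita does not bind DNA itself but is recruited by factors sitting on the X and Y boxes of these promoters, and its level sets class II transcription in dendritic cells and B cells.

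The sequences of the deleted microRNA are shown first, since they name what the knockout groups lack. Both come from RefSeq for build GRCm38.p6, and capitals mark the seed, bases 2 to 8.
mmu-miR-22-3p, chr11:75463772-75463793, plus strand: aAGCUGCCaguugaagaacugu
mmu-miR-22-5p, chr11:75463734-75463755, plus strand: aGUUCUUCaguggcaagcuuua
No probe on the array was named for Mir22, so the genotype labels were not checked on the deleted gene.

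Promoter stretches are shown because the class II genes are read as a group, and these letters show how far the promoters of 6 of them are alike. RefSeq promoter windows (250 bases before to 50 after the start, GRCm38.p6) were searched for 7 of the 10 genes, in 8 windows. H2-Ab1 and Ciita had no window, and Cd74 was left out of the member count. An X core spelled AACNNATG followed by a Y box spelled GATTGG at most 40 bases later, searched on both strands, was present in 5 of these 8 windows and in 37 of 32851 windows of all genes (0.1126%). The X core alone was in 8.864% of all windows and the Y box alone in 16.11%. This spelling was settled on after the windows of the 10 genes had been read and 5 other spellings had been counted, so the contrast with all windows describes the choice and tests nothing. Capitals mark the X core and the Y box.
H2-DMb2, chr17:34145116-34145175, plus strand: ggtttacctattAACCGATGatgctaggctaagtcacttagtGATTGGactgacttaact
H2-DMb1, chr17:34153087-34153146, plus strand: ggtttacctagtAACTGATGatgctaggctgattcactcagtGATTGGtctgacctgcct
H2-Ob, chr17:34238808-34238864, plus strand: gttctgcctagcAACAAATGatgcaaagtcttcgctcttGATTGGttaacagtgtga
H2-Eb1, chr17:34305766-34305824, plus strand: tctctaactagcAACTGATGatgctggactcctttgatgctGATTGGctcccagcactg
H2-Eb2, chr17:34325533-34325591, plus strand: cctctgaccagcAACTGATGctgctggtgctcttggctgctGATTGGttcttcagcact
H2-Aa, Y box only, chr17:34287855-34287918, minus strand: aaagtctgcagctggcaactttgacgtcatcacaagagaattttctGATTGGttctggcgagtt
In the 5 paired stretches 19 to 22 bases separate the X core from the Y box, and the X core begins 85 to 130 bases before the start. H2-Aa holds the Y box 49 bases before its start with no such pair. Its label means that no pair in these spellings was found, not that an X box is absent. One of the H2-DMa windows holds a Y box 199 bases before the start, not shown, and likewise no such pair. A match is a run of letters and says nothing of binding in these cells.

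Arrays were comparable as a whole. Mean intensity ran from 156 to 218, 31.4% to 35.0% of probes were detected, and arrays of the same group correlated at 0.987 to 0.993 over the normalized probes. The highest raw intensity of any of these probes was 9934 (wild-type PBS array 2), below the 21951 of the brightest probe on that array. Values below are background-corrected, quantile-normalized log2 intensities. A gene is called when its Benjamini-Hochberg adjusted p over all 12380 features in limma's moderated test is under 0.05. Errors of differences are limma's SE with 3 arrays a group.

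Averaged over both exposures, 7 of the 10 were lower in knockout than in wild-type cells and none was higher: Ciita, Cd74, H2-Aa, H2-Ab1, H2-Eb1, H2-DMb1 and H2-DMb2, by 1.45-fold to 1.72-fold. Of all features, 1.49% were called lower and 1.74% higher in this comparison. All 10 differences were below 0, with a median log2 difference of -0.65 against 0.00 for all features. Bulk arrays cannot tell fewer cells of a type apart from less RNA per cell.

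**Figure D1:**
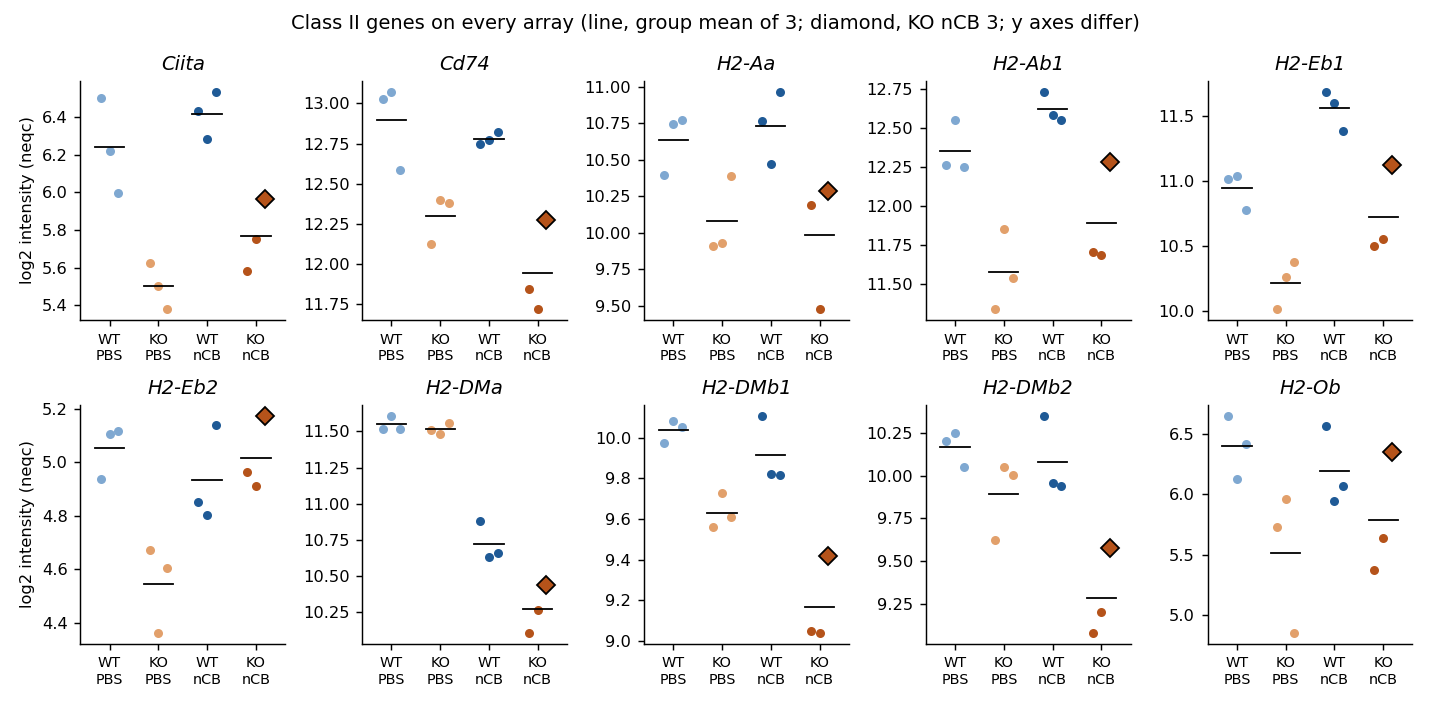
Normalized log2 intensity of the 10 genes on each of the 12 arrays, 1 panel per gene, with 3 points per group, a line at the group mean and a diamond for knockout nCB array 3. The y axes differ between panels. For Ciita, Cd74, H2-Aa, H2-Ab1, H2-Eb1 and H2-DMb1 every knockout array lies below every wild-type array of the same exposure.

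Ciita, the coactivator, was measured by 1 detected probe. The log2 intensities of replicates 1, 2 and 3 were 6.50, 6.22 and 6.00 in wild-type PBS, 5.62, 5.50 and 5.38 in knockout PBS, 6.43, 6.28 and 6.53 in wild-type nCB, and 5.58, 5.75 and 5.96 in knockout nCB. Each knockout array was below each wild-type array, whatever the exposure. Ciita was 1.67-fold lower in knockout cells under PBS (log2 difference -0.74 ± 0.14, limma adjusted p = 0.0186) and 1.57-fold lower under nCB (-0.65 ± 0.14, adjusted p = 0.0219). Exposure itself moved it little, by 0.18 ± 0.14 in wild-type and 0.27 ± 0.14 in knockout cells, neither of which was called. Its second probe was detected on 1 array and was not tested. The size of the difference varied with processing: over both exposures it was -0.69 ± 0.10, -0.29 with no background correction and -0.99 in the authors' processed values, called in each.

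The classical chains follow. H2-Ab1, the I-A β chain, stood at 12.27, 12.55 and 12.25 in wild-type PBS, 11.34, 11.85 and 11.54 in knockout PBS, 12.73, 12.59 and 12.55 in wild-type nCB, and 11.71, 11.69 and 12.28 in knockout nCB. The genotypes did not overlap under either exposure, and the third knockout nCB array was above 2 of the wild-type PBS arrays. H2-Ab1 was 1.71-fold lower in knockout cells under PBS (-0.78 ± 0.17, adjusted p = 0.0402) and 1.66-fold lower under nCB (-0.73 ± 0.17, adjusted p = 0.0281). Fitted among all detected probes, its other 2 probes were lower under nCB (-0.96 ± 0.17, adjusted p = 0.00547, and -0.93 ± 0.19, adjusted p = 0.0120) and not called under PBS (-0.66 ± 0.17, adjusted p = 0.131, and -0.68 ± 0.19, adjusted p = 0.172), with no overlap between genotypes. With nCB the 3 H2-Ab1 probes gave 0.27, 0.37 and 0.40 in wild-type cells and 0.31, 0.07 and 0.15 in knockout cells, none called.

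H2-Eb1, the I-E β chain, was at 11.01, 11.04 and 10.77 in wild-type PBS, 10.01, 10.26 and 10.37 in knockout PBS, 11.69, 11.60 and 11.39 in wild-type nCB, and 10.50, 10.55 and 11.12 in knockout nCB. Wild-type nCB arrays were the highest and knockout PBS arrays the lowest of the 12. It was lower in knockout cells by 1.66-fold under PBS (-0.73 ± 0.16, adjusted p = 0.0493) and 1.78-fold under nCB (-0.83 ± 0.16, adjusted p = 0.0102). H2-Eb1 also rose with nCB in both genotypes, by 0.62 ± 0.16 in wild-type (adjusted p = 0.015) and 0.51 ± 0.16 in knockout cells (adjusted p = 0.0454).

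H2-Aa, the I-A α chain, had 1 probe, with 10.39, 10.75 and 10.77 in wild-type PBS, 9.91, 9.93 and 10.39 in knockout PBS, 10.76, 10.47 and 10.97 in wild-type nCB, and 10.19, 9.48 and 10.28 in knockout nCB. The groups touched under PBS, where the highest knockout array and the lowest wild-type array differ by less than the printed decimals, and spread more than for the other chains. H2-Aa was not called under PBS (-0.56 ± 0.21, adjusted p = 0.399) or nCB (-0.75 ± 0.21, adjusted p = 0.0598), and was called over both exposures (-0.66 ± 0.15, adjusted p = 0.0207).

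H2-Eb2, a close relative of H2-Eb1, lay near the floor of the array. Its probe gave 4.94, 5.11 and 5.12 in wild-type PBS, 4.67, 4.36 and 4.61 in knockout PBS, 4.85, 4.80 and 5.14 in wild-type nCB, and 4.96, 4.91 and 5.17 in knockout nCB, and was detected on 11 arrays. The knockout PBS arrays were the lowest, and the other 3 groups overlapped. H2-Eb2 was not called between genotypes. With this probe it rose with nCB in knockout cells (0.47 ± 0.13, adjusted p = 0.0220), and the wild-type difference was -0.12 ± 0.13. The knockout increase was not called under median scaling of the arrays (0.43, adjusted p = 0.178) or with no background correction (0.12, adjusted p = 0.0796). The difference between both effects was not called (0.59 ± 0.18, adjusted p = 0.275). A second probe, detected on 10 arrays, ran differently: its knockout nCB mean of 4.51 was below its wild-type nCB mean of 4.96 (-0.45 ± 0.12, adjusted p = 0.0588), where the first probe gave 0.08 ± 0.13. With nCB the second probe gave -0.06 ± 0.12 in knockout and 0.30 ± 0.12 in wild-type cells, neither called, so both probes differ in direction in each genotype. The third probe was detected on 1 array.

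Cd74, the invariant chain, was at 13.03, 13.07 and 12.59 in wild-type PBS, 12.12, 12.40 and 12.38 in knockout PBS, 12.75, 12.77 and 12.82 in wild-type nCB, and 11.85, 11.72 and 12.27 in knockout nCB. All knockout arrays were below all wild-type arrays. Under nCB it was 1.78-fold lower in knockout cells (-0.83 ± 0.16, adjusted p = 0.00881), and under PBS the difference of -0.59 ± 0.16 was not called (adjusted p = 0.125). Fitted as separate features, the 3 Cd74 probes gave -0.83 ± 0.16, -0.85 ± 0.14 and -1.15 ± 0.24 under nCB, all called. Under PBS they gave -0.59 ± 0.16, -0.70 ± 0.14 and -0.61 ± 0.24, and the second was called (adjusted p = 0.0290). With nCB, Cd74 changed by -0.11 ± 0.16 in wild-type and -0.36 ± 0.16 in knockout cells, and neither was called. In knockout cells the other 2 probes gave -0.42 ± 0.14 (adjusted p = 0.0604) and -0.94 ± 0.24 (adjusted p = 0.0129), so the dimmest of the 3 was called.

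**Figure D2:**
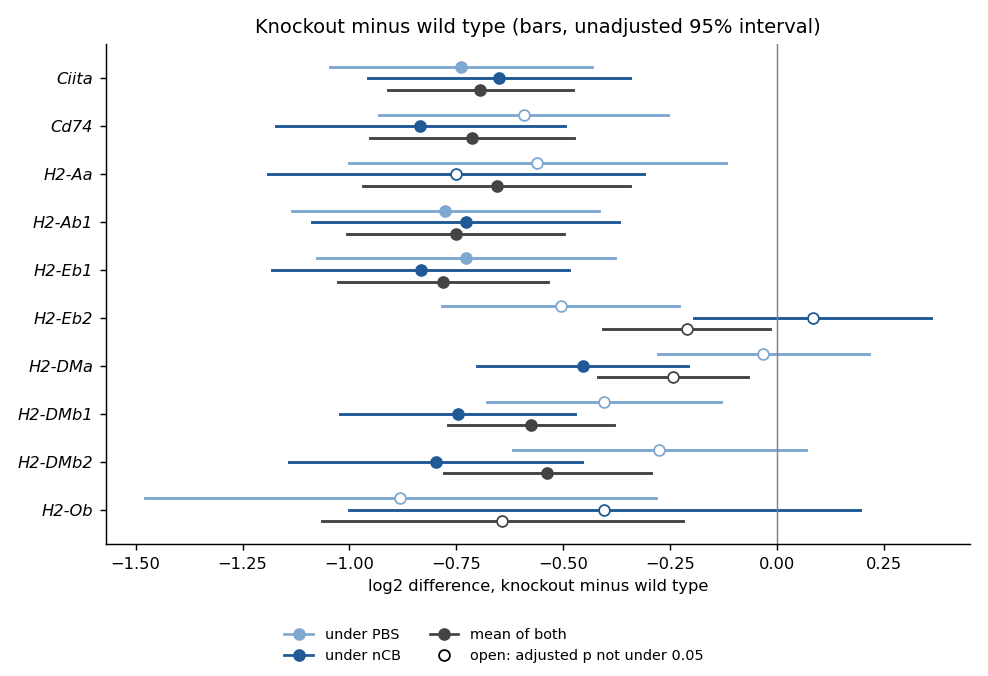
Log2 difference of knockout minus wild type for each of the 10 genes under PBS, under nCB and as the mean of both, with unadjusted 95% confidence intervals from limma and filled points where the adjusted p is under 0.05. Under nCB 7 genes lie below 0 with a call and H2-Eb2 is at 0.08. Under PBS 3 genes are called and H2-DMa is at -0.03.

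The peptide-exchange genes come next. H2-DMa was at 11.52, 11.61 and 11.52 in wild-type PBS, 11.51, 11.48 and 11.56 in knockout PBS, 10.88, 10.63 and 10.66 in wild-type nCB, and 10.11, 10.26 and 10.44 in knockout nCB. Under PBS the genotypes overlapped, and under nCB the groups separated from PBS and from each other. It fell 1.77-fold with nCB in wild-type cells (-0.82 ± 0.12, adjusted p = 1.01e-04) and 2.37-fold in knockout cells (-1.25 ± 0.12, adjusted p = 2.05e-06). Knockout cells were lower than wild-type cells under nCB (-0.45 ± 0.12, adjusted p = 0.0431) and not called under PBS (-0.03 ± 0.12, adjusted p = 0.979, 95% interval -0.28 to 0.21). The second H2-DMa probe gave -0.48 ± 0.15 between genotypes under nCB, with overlapping arrays and an adjusted p of 0.103.

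H2-DMb1 had 9.97, 10.08 and 10.06 in wild-type PBS, 9.56, 9.73 and 9.61 in knockout PBS, 10.11, 9.82 and 9.82 in wild-type nCB, and 9.05, 9.04 and 9.42 in knockout nCB. The knockout nCB arrays were the lowest 3 of the 12. H2-DMb1 was 1.68-fold lower in knockout cells under nCB (-0.75 ± 0.13, adjusted p = 0.00460), and its PBS difference of -0.41 ± 0.13 was not called (adjusted p = 0.257) although the groups did not overlap. With nCB it fell in knockout cells (-0.46 ± 0.13, adjusted p = 0.0219), against -0.12 ± 0.13 in wild-type cells.

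H2-DMb2 had 10.20, 10.25 and 10.05 in wild-type PBS, 9.62, 10.05 and 10.01 in knockout PBS, 10.35, 9.96 and 9.94 in wild-type nCB, and 9.08, 9.20 and 9.58 in knockout nCB. Again the knockout nCB arrays were the lowest. It was 1.74-fold lower in knockout cells under nCB (-0.80 ± 0.16, adjusted p = 0.0122) and fell with nCB in knockout cells (-0.61 ± 0.16, adjusted p = 0.0164). H2-DMb1 and H2-DMb2 are near-identical copies, so a probe may bind both transcripts and their values are not independent. A second, dimmer H2-DMb2 probe gave -0.53 ± 0.19 between genotypes under nCB, with overlapping arrays and an adjusted p of 0.154.

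H2-Ob, the β chain of the H2-DM inhibitor, had the largest SE of the 10 genes, with log2 intensities of 6.65, 6.13 and 6.41 in wild-type PBS, 5.73, 5.96 and 4.85 in knockout PBS, 6.56, 5.95 and 6.07 in wild-type nCB, and 5.37, 5.64 and 6.35 in knockout nCB. Its genotypes did not overlap under PBS and overlapped under nCB through the third knockout array. H2-Ob was called in no comparison. The differences were -0.88 ± 0.28 under PBS (adjusted p = 0.259) and -0.40 ± 0.28 under nCB (adjusted p = 0.527).

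Counted by comparison, knockout cells had 3 of the 10 genes called lower under PBS (Ciita, H2-Ab1 and H2-Eb1), where 0.533% of all features were called lower and 0.412% higher. Under nCB, 7 were called lower (the same 3 with Cd74, H2-DMa, H2-DMb1 and H2-DMb2), where 1.49% of features were called lower and 1.93% higher. In each exposure 8 genes had every knockout array below every wild-type array, a layout held by 7.04% of all features under PBS and 9.35% under nCB. The median differences were -0.58 and -0.74, against -0.01 and 0.01 for all features. The genotype comparisons under PBS and nCB use different arrays, and those with exposure share arrays with them.

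Single arrays decided several of these calls. Under PBS, Ciita was not called without wild-type PBS array 1 (adjusted p = 0.113) or 2 (0.0691), or without knockout PBS array 2 (0.0572) or 3 (0.104). H2-Ab1 lost its call without any 1 of the wild-type PBS or wild-type nCB arrays or knockout PBS array 1 or 3 (adjusted p 0.0526 to 0.198). H2-Eb1 kept its PBS call only without knockout nCB array 1 or 3, and otherwise had an adjusted p of 0.0526 to 0.208. Under nCB, 1 gene was called without knockout array 2, 3 without knockout array 1, 2 without wild-type array 1 and 4 without wild-type array 3, and H2-DMb1 was called in all of these. H2-DMa kept its nCB genotype call only without knockout PBS array 2 or knockout nCB array 3. Over both exposures H2-Aa was not called without any 1 of wild-type PBS arrays 2 and 3, knockout PBS array 1, and wild-type nCB arrays 1 and 3 (adjusted p 0.0523 to 0.0588), and the other 6 genes were called whichever array was left out.

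**Figure D3:**
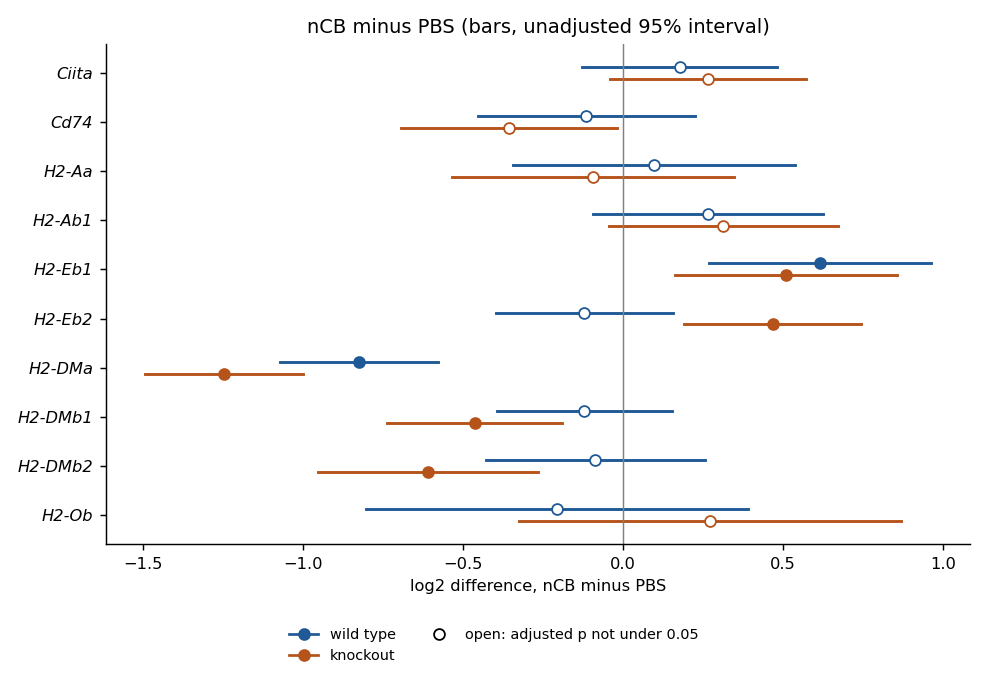
Log2 difference of nCB minus PBS for each of the 10 genes in wild-type and in knockout cells, with unadjusted 95% confidence intervals from limma and filled points where the adjusted p is under 0.05. H2-DMa lies at -0.82 and -1.25, and H2-Eb1 at 0.62 and 0.51.

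Exposure did not move the 10 genes one way. In wild-type cells 1 was called higher (H2-Eb1) and 1 lower (H2-DMa), where 8.88% of all features were higher and 9.22% lower, so this count lies near the background. In knockout cells 2 were higher (H2-Eb1 and H2-Eb2) and 3 lower (H2-DMa, H2-DMb1 and H2-DMb2), against 8.69% and 7.29% of features. The median differences were -0.10 and 0.09. No difference between genotypes in the effect of nCB was called for any of the 10 genes by limma's interaction test, where 0.129% of features were called. With an unadjusted p under 0.05 there were 3, H2-Eb2 (0.59 ± 0.18), H2-DMa (-0.42 ± 0.16, adjusted p = 0.398) and H2-DMb2 (-0.52 ± 0.23, adjusted p = 0.467). The 0.129% counts adjusted calls and is no background for these 3. No share of all features is given for the unadjusted threshold, so nothing is concluded from this count.

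The exposure calls also leaned on single arrays, apart from H2-DMa, which was called in both genotypes whichever array was left out. In wild-type cells H2-Eb1 was not called without PBS array 3 (adjusted p = 0.0714) or nCB array 1 (0.0655). In knockout cells H2-Eb1 was called in 3 of the 12 fits that left out 1 array (adjusted p up to 0.186). H2-Eb2 lost it without knockout PBS array 2 (0.0938) or knockout nCB array 3 (0.0878). H2-DMb1 and H2-DMb2 both lost it without knockout PBS array 2 or 3 or knockout nCB array 1 or 2, with adjusted p-values of 0.0543 to 0.0924 and 0.0629 to 0.0747. Under a scaling of arrays to a common median instead of quantiles, neither H2-Eb1 increase was called (0.52, adjusted p = 0.105, and 0.43, adjusted p = 0.277), though both stayed above 0.

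The third knockout nCB array stood apart for this gene group. In normalized values of 1 probe per gene, it was the highest of its 3 arrays for all 10 genes, a position it held for 34.2% of all features. Against the mean of the other 2 arrays the excess ran from 0.24 (H2-Eb2) to 0.85 (H2-Ob), with 0.30 for Ciita, 0.49 for Cd74, 0.45 for H2-Aa, 0.58 for H2-Ab1 and 0.59 for H2-Eb1. The median was 0.45, against -0.02 over all features, whose central 90% lay between -0.44 and 0.46. No other array was highest of its group for more than 6 of the 10 genes, the second knockout nCB array was under the mean of its group's others for all 10, and the medians of the other 11 ran from -0.26 to 0.18. Its mean intensity of 172 and 32.3% of probes detected lay within the range of the series. It still lay below every wild-type nCB array for 8 genes, was within their range for H2-Ob, and was above them for H2-Eb2. Of all tested probes only the second H2-Eb2 probe was not highest on this array, at 4.29 against 4.71 and 4.53. In raw intensity the array was highest for Cd74, H2-Ab1, H2-Eb1 and H2-Ob. For Ciita, H2-Aa, H2-Eb2, H2-DMa, H2-DMb1 and H2-DMb2 its raw intensity lay between those of the other 2 arrays.

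**Figure D4:**
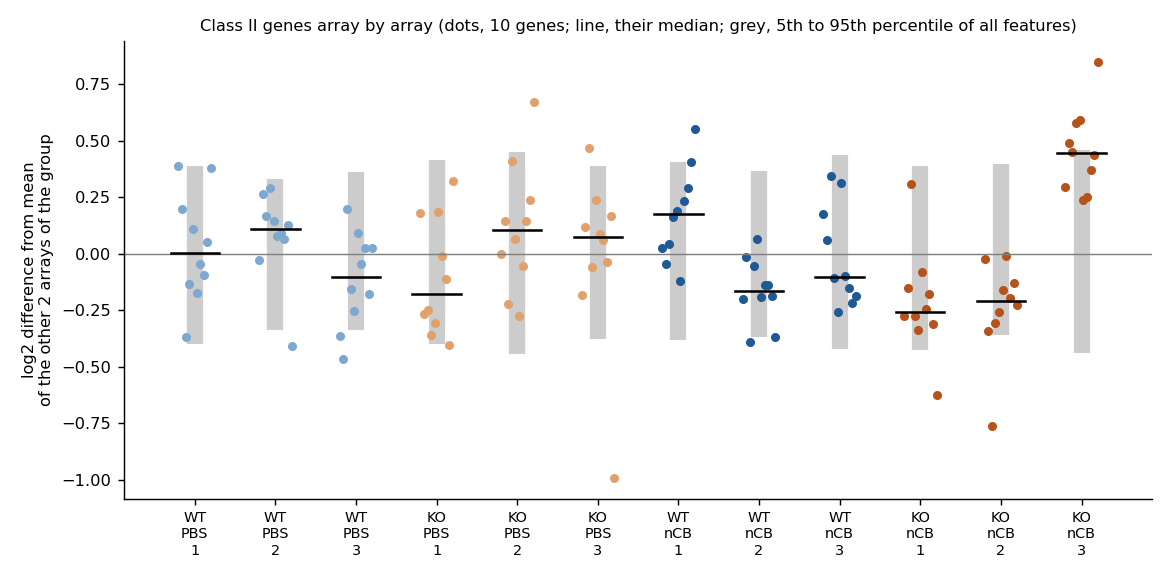
Deviation of each of the 12 arrays from the mean of the other 2 arrays of its group in log2 units, with 1 point per gene, a line at the median over the 10 genes and a grey bar from the 5th to the 95th percentile of all features. Only the third knockout nCB array has all 10 genes above 0, with a median of 0.45.

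The third knockout nCB array was singled out because it was the highest of its group for each of these genes. Leaving it out therefore had to lower the knockout nCB mean of each gene. The downward direction of the shifts below follows from that choice and tests nothing. Without that array 8 genes were lower in knockout than in wild-type cells under nCB, since H2-Aa joined them (-0.90, adjusted p = 0.0319). The median difference was then -0.89. The background without that array was 1.58% called lower and 2.60% higher. The differences were then -1.0 for Cd74, -1.03 for H2-Eb1, -0.94 for H2-DMb2, -0.92 for H2-Ab1, -0.87 for H2-DMb1, -0.75 for Ciita and -0.54 for H2-DMa. For nCB in knockout cells the count became 0 higher and 4 lower, against 8.19% and 5.9% of all features. H2-Eb1 (0.31, adjusted p = 0.186) and H2-Eb2 (0.39, adjusted p = 0.0878) were no longer called, and Cd74 was (-0.52, adjusted p = 0.0373). Over both exposures 8 genes were called lower, since H2-Ob joined them (-0.78, adjusted p = 0.0279). There 1.73% of all features were called lower and 2.32% higher. No interaction was called without it.

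Other genes of the pathway did not share the genotype pattern as a group. Of 13 listed symbols of accessory and antigen-processing genes, which include older names of Marchf1 and Marchf8, 9 were tested. Over both exposures 1 was lower in knockout cells, H2-Oa, the α chain partner of H2-Ob (-0.60 ± 0.14, adjusted p = 0.0280). The other call was higher, Ctse, the endosomal protease cathepsin E (0.60 ± 0.09, adjusted p = 9.32e-04). Ctss, which encodes the main protease cutting the invariant chain in dendritic cells, was at -0.01 ± 0.13. With nCB, 3 of the 9 rose in wild-type cells: the proteases Lgmn (1.76 ± 0.13), Ctsd (0.89 ± 0.23) and Ctsb (0.75 ± 0.16). In knockout cells the same 3 rose together with Ctse (1.39 ± 0.13 for Lgmn, 1.27 ± 0.23 for Ctsd, 0.82 ± 0.16 for Ctsb and 0.84 ± 0.12 for Ctse).

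Of 20 listed regulators of class II transcription, 15 were tested, and none was called between genotypes under PBS, under nCB or over both exposures. Rfxank and Rfxap, subunits of the factor that binds the X box, differed by 0.02 ± 0.11 and -0.11 ± 0.08 over both exposures, and the transcription factors Irf4 and Irf8 by -0.19 ± 0.12 and 0.10 ± 0.10. Rfxank was detected on only 3 arrays, with group means of 4.43 to 4.49, near the floor of the array. Its value therefore cannot show whether the genotypes differ. Rfx5 and Socs1 had no listed probe. With nCB, 2 rose and 1 fell in wild-type cells: Jak2, a kinase of the interferon gamma receptor (0.76 ± 0.11), the receptor chain Ifngr2 (0.80 ± 0.17), and Nfyc, a subunit of the factor that binds the Y box (-0.61 ± 0.14). In knockout cells 2 rose and 3 fell, with Ifngr2 at 0.88 ± 0.17, Jak2 at 0.49 ± 0.11, Ifngr1 at -0.74 ± 0.13, the macrophage factor Spi1 at -0.58 ± 0.12 and Nfyc at -0.44 ± 0.14. Between genotypes over both exposures, the smallest limma p of the 15 were those of Jak2 and the receptor chain Il10ra. They differed by -0.27 ± 0.08 (adjusted p = 0.0914) and -0.23 ± 0.09 (adjusted p = 0.265). Under nCB alone Jak2 was at -0.41 ± 0.11 (adjusted p = 0.0655).

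Markers of the cell types that a CD11c+ fraction of lung could hold were set beside the 10 genes. Itgax, the CD11c gene, was detected on all 12 arrays, with group means of 5.78 to 6.14. Of the alveolar macrophage markers 13 of the 14 tested were detected on all arrays, Siglecf was detected on 3, and Atp6v0d2 was detected on 2 and was not tested. A further 5 listed symbols had no probe, among them Chi3l3 and Siglec5, older names of Chil3 and Siglecf. Of the dendritic cell markers Zbtb46 was detected on 2 arrays, and Flt3 and Xcr1 had no listed probe. Summed linear intensity of the 10 class II genes, which the brightest probes dominate, was 19600 to 23876 in wild-type PBS, 13490 to 16048 in knockout PBS, 21159 to 23065 in wild-type nCB, and 11786, 11211 and 16248 on the 3 knockout nCB arrays. The sum over 13 conventional dendritic cell markers was 6525 to 7237, 5572 to 7475, 5597 to 6508, and 6970, 8003 and 6412 in the same order, but Sirpa, which macrophages also express, made up 58.8% to 90.8% of it. Without Sirpa, a sum added after the values were seen, the other 12 markers gave 744 to 886 in wild-type PBS, 558 to 759 in knockout PBS, 2068 to 2307 in wild-type nCB, and 1216, 1223 and 1992 on the 3 knockout nCB arrays. This sum was lower in knockout cells under nCB with no overlap, as the class II sum was, and was highest of its group on the third knockout nCB array. Under PBS it overlapped between genotypes.

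Over the monocyte and interstitial macrophage markers the sum was 2032 to 2103 in wild-type PBS, 1830 to 2131 in knockout PBS, 6888 to 8230 in wild-type nCB and 3997 to 5693 in knockout nCB. It too was lower in knockout cells under nCB with no overlap. C1qb, C1qc, Apoe and C1qa weigh most in this sum. Their mean log2 intensities were 11.19, 10.75, 10.32 and 9.33 in wild-type nCB and 10.26, 9.80, 9.51 and 8.31 in knockout nCB. Under nCB 11 of the 13 markers were below 0 in knockout against wild-type cells, and Mertk was not (8.92 against 8.50). The alveolar macrophage sum was 38272 to 40213, 35829 to 37707, 29840 to 34342 and 35439 to 40524 in the same order, so that knockout arrays were higher under nCB and lower under PBS, with no overlap in either. Chil3 made up 28.6% to 41.8% of this sum. Without Chil3 the other 13 markers gave 22515 to 26243, 21278 to 24944, 19226 to 23919 and 20969 to 25555. The genotypes then overlapped under both exposures. That sum was also added after the values were seen.

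Under nCB 10 of the 13 dendritic cell markers were below 0 in knockout against wild-type cells (median -0.15), with 2 called lower and none higher. Over both exposures 3 of 13 were lower in knockout cells and none was higher, namely the lectin Mgl2 (-0.77 ± 0.11, adjusted p = 9.75e-04), the chemokine Ccl17 (-0.85 ± 0.14, adjusted p = 0.00299) and the receptor Kit (-0.56 ± 0.10, adjusted p = 0.00663). Of 13 monocyte and interstitial macrophage markers 4 were lower (5 under nCB), including the complement chains C1qa (-0.77 ± 0.11), C1qb (-0.86 ± 0.15) and C1qc (-0.73 ± 0.16). Of 14 alveolar macrophage markers 2 were higher (3 under nCB), Krt79 (0.85 ± 0.12) and Il18 (0.39 ± 0.09). Among 6 plasmacytoid dendritic cell markers 1 was lower, Bst2 (-0.71 ± 0.16), and among 6 neutrophil markers 1, Ltf (-0.69 ± 0.16). None of 6 B cell, 7 T and NK cell or 8 lung epithelium markers was called. Their part in the class II difference was not tested.

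B cells also carry class II. The summed B cell markers were 778 to 1489 in wild-type PBS, 533 to 862 in knockout PBS, 422 to 686 in wild-type nCB, and 403, 484 and 803 on the 3 knockout nCB arrays. Only Cd79b, Cd22 and Fcmr were detected on all 12 arrays, and Cd79a and Ighm had no listed probe. In wild-type cells 2 of the 6 fell with nCB, Fcmr (-1.43 ± 0.36, adjusted p = 0.0108) and Cd79b (-1.20 ± 0.38, adjusted p = 0.0398). On the third knockout nCB array, where the class II genes were high, the sums over B cell, plasmacytoid dendritic cell (706 against 664 and 561), T and NK cell (1100 against 704 and 861), neutrophil (2865 against 1952 and 2038) and lung epithelium markers (9741 against 7741 and 8467) were also the highest of its group. So was the dendritic cell sum without Sirpa. The sum over alveolar macrophage markers (35439 against 40024 and 40524) was the lowest, and that over monocyte and interstitial macrophage markers (4422 against 5693 and 3997) lay between the other two. Their part in its class II levels was not tested.

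Of the 10 genes, 8 lie in 1 stretch of chromosome 17, with Ciita on chromosome 16 and Cd74 on chromosome 18. RefSeq places 4 other protein-coding genes between them, all of the class I pathway: the proteasome subunits Psmb8 and Psmb9 and the peptide transporter chains Tap1 and Tap2. These were looked up after the class II values were known. None of the 4 was called between genotypes under PBS (-0.25 to 0.11) or over both exposures (-0.29 to -0.13). Psmb8 came closest over both exposures (-0.29, adjusted p = 0.0510). Under nCB all 4 were below 0 (-0.54 to -0.06), with a median of -0.36 against 0.01 for all features. Of these, Psmb8 was called lower (-0.54, adjusted p = 0.0109). Ciita and Cd74, on other chromosomes, differed by -0.69 ± 0.10 and -0.71 ± 0.11 over both exposures.

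Within the group, genes tracked the shared profile to different degrees. The profile is the mean over the 9 genes detected on all arrays, each centred over the 12 arrays, and likeness is the root mean square difference from it in log2 units. H2-DMb1 (0.129) and Cd74 (0.141) were closest, followed by H2-DMb2 (0.189), Ciita (0.217), H2-Ab1 (0.225) and H2-Aa (0.240). H2-Ob (0.332), H2-Eb1 (0.349) and H2-DMa (0.522) were farthest, and a flat profile would score 0.343. Among 9799 other genes (median 0.403) the 8 nearest were Ap4s1 (0.109), Ide (0.145), Arl11 (0.150), 1700123O20Rik (0.150), Lmnb1 (0.165), Ehd4 (0.174), Syngr2 (0.178) and Galnt10 (0.179). They were chosen for this likeness, so their values are a description: Ap4s1, a subunit of an adaptor complex, averaged 8.23 in wild-type PBS, 7.83 in knockout PBS, 8.31 in wild-type nCB and 7.66 in knockout nCB.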

How the data were processed

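RNA of 12 samples was measured on Illumina bead arrays, 100 ng of total RNA each, per the labels. The deposited table holds intensity for 45281 probes, exported with GenomeStudio per the submitters' processing notes (version not given in the sources used here), with a detection p-value per probe beside each intensity, per the file headers. A second deposited table holds the authors' processed log2 values for the 24952 probes detected on at least 1 array. Judged from the values it is quantile-normalized (median 3.12 on every array), and its further steps are not given in the sources used here.

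In R 4.3.3, the neqc function of limma 3.58.1 background-corrected and quantile-normalized the intensities (background from the detection p-values, offset 16, so folds of dim probes are understated). Probes with detection p under 0.05 on at least 3 arrays were kept (17346), named from the platform annotation (20501 probes with 1 symbol, 11 with several), and reduced to the brightest probe per symbol, which left 12380 features. limma fitted 1 mean per group to all 12 arrays (8 residual and 6.86 prior degrees of freedom). An exact permutation test of 3 against 3 arrays cannot go below p = 0.1. In simulated data for knockout against wild type under nCB (12380 features), 36% of changes of 0.5 log2 units and 97% of changes of 1 were called, and 3.62% of calls were false. The simulation changed 100 features by each size in the knockout nCB group only, with independent noise for each feature and no other effects. Genes that move together, as on real arrays, were not simulated, so these rates may not hold for the data.

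All 10 class II genes are named. Of the pathway lists up to 4 genes per comparison with the smallest p are named, with Ctss, Rfxank, Rfxap, Irf4, Irf8 and, for nCB in knockout cells, Nfyc added after their values were seen. Of the marker lists up to 3 are named, and 8 genes by likeness of profile. The genes, the 10 lists (138 symbols) and the comparisons were chosen with earlier results of these data known, so no p is adjusted over a list. Summed marker levels are sums of 2 to the power of the log2 intensity, minus the offset. Replicate numbers shared by groups were not taken as pairs (5 of 18 same-number pairs correlated above 0.1 after removing group means). That count cannot exclude a pairing, and what the numbers mark is not known. The file headers name no slide or scan, so no batch was tested.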

Additional observations from a re-analysis of the deposited data

How the results depend on the processing

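The counts of called class II genes depended on processing most within single exposures. With nCB in wild-type cells the count of 2 became 1 under median scaling, in the authors' processed values and with no detection filter, and was 1 to 2 with single arrays left out. With nCB in knockout cells 5 became 2 under median scaling, 2 in the authors' values, 3 with no filter and 3 when only the groups compared were fitted, and 1 to 5 with single arrays left out. For knockout against wild type under PBS 3 became 0 in the authors' values, 0 with no filter, 1 with only the groups compared and 1 with the replicate number as a block, and 0 to 3 with single arrays left out. Under nCB 7 became 1 in the authors' values and 3 with no filter, and 1 to 8 with single arrays left out. Over both exposures the count of 7 ran from 5 to 8 in every setting run, and the interaction count was 0 in each. No called gene changed sign. Ciita, Cd74, H2-Ab1, H2-Eb1 and H2-DMb1 over both exposures were called in all 19 settings, and H2-DMa with nCB in all 20 settings in both genotypes. With the replicate block H2-Aa was called under nCB (adjusted p = 0.0336). Whether the numbers pair the arrays is not known, so this is a different split of the spread, not read as a paired test. Median scaling put the median of all features at -0.13 for knockout against wild type under PBS (-0.01 with quantiles) and at -0.11 for nCB in wild-type cells (-0.02), and changed calls over all features under nCB from 239 higher and 185 lower to 38 and 81. The cause of these changes was not tested. No alternative with a slide as block was run, since no slide is named. Dim probes (H2-Eb2, H2-Ob, Ciita) sit near the floor of the arrays, which limits their folds.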
